A study of Mus musculus with 36 samples.

Results

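The liver of a male mouse reads growth hormone as separate pulses, while that of a female sees a nearly steady level, and a set of liver genes follows this difference. The 9 genes described here, Hsd3b5, Cyp7b1, Moxd1, Elovl3, Cyp4a12a, Abcd2, Sult3a1, A1bg and Cux2, were taken as an outer sign of that rhythm. They are 9 of the 19938 genes that the array names through a probe set with a single symbol, and each of them had exactly 1 such probe set. The members were chosen by a list of names that was drawn up with measured results on the aging liver in view, namely their log2 differences between 5 and 24 months, so the age differences of its members in liver are given as a description, without a test.

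As background, growth hormone binds its receptor Ghr, activates the kinase Jak2, and causes the transcription factors Stat5a and Stat5b to enter the nucleus. Strong Stat5b activity after each pulse maintains male-biased genes in the male liver. The repressor Bcl6 also acts on sex-biased genes there. A steady hormone level instead turns on female-biased genes, among them Cux2, itself a transcription factor. Loss of the pulses lowers many male-biased genes and raises some female-biased ones. Only male mice were arrayed here, so neither sex bias nor dependence on pulses was measured, and "male-biased" and "female-biased" stand for prior knowledge about each gene.

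The animals were male C57Bl/6 mice, wild type or carrying 1 functional copy of the gene for the transcription factor Myc (Myc+/-), killed at 5 or 24 months of age. Liver, skeletal muscle and adipose tissue came from the same animals. For each tissue, age and genotype there was 1 RNA pool, made from 6 wild type and 5 Myc+/- mice at 5 months and from 5 wild type and 8 Myc+/- mice at 24 months. Each of the 12 pools was hybridized to 3 Affymetrix Mouse Gene 1.0 ST arrays, giving 36 arrays. These 3 arrays repeat the measurement of 1 RNA mixture and do not sample further mice.

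Values are log2 expression, so a difference of 1 is 2-fold. In bulk tissue, fewer cells that make a transcript and less transcript per cell cannot be told apart. The median value of an array lay between 6.95 and 7.14, arrays of 1 pool correlated at 0.988 to 0.994 across probe sets, and the median SD of 3 technical arrays in liver was 0.0992. Myc itself was at 65.8% of the wild type level in the 5-month Myc+/- liver pool and at 84.8% in the 24-month one. Array 1 of the 5-month Myc+/- liver pool stood apart for 3 members: it read 12.70 for Cyp4a12a against 13.33 and 13.32 on the other arrays of that pool, 12.75 for Elovl3 against 13.18 and 13.20, and 12.40 for Cyp7b1 against 12.62 and 12.63. The labels give no hour of death, which matters for genes that follow the day.

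Promoter sequences were looked up because the members are thought to answer to shared factors, STAT5, CUX2 and the ONECUT proteins. RefSeq windows of 250 bases ending at the transcription start (GRCm38.p6) were at hand for 5 of the 9 members and 6 start sites. They are printed 5′ to 3′ on the strand of the gene, with motif matches in capitals: TTCNNNGAA for STAT5, ATCGAT for CUX and ONECUT, and ATCAAT (its reverse complement is ATTGAT) for ONECUT, searched on both strands. The 4 windows shown are those of the members with the widest differences between liver pools, Hsd3b5, Moxd1 and Sult3a1, and the one Cux2 window with a match.
Hsd3b5, chr3:98645535-98645784, minus strand: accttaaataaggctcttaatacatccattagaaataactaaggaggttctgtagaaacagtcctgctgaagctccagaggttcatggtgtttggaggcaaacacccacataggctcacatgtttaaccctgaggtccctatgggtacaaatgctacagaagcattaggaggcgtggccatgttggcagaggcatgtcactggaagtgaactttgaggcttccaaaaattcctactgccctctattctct
Moxd1, chr10:24223267-24223516, plus strand: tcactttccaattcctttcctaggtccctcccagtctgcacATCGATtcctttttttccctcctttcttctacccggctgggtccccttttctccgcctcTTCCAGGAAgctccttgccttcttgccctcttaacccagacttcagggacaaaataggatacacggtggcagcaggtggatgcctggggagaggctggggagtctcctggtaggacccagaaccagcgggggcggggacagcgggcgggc
Sult3a1, chr10:33857472-33857721, plus strand: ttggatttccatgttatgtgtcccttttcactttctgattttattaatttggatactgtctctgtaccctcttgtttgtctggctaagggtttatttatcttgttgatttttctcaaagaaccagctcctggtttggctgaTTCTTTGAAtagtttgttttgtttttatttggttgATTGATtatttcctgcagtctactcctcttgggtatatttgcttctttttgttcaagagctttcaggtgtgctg
Cux2, chr5:122047826-122048075, minus strand: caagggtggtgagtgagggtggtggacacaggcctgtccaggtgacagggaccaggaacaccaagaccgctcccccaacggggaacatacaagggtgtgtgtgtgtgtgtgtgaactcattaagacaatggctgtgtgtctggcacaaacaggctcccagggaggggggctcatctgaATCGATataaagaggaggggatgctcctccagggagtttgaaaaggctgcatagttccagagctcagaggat

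The Hsd3b5 window held none of the 3 motifs. The Moxd1 window held ATCGAT starting at position -209 (the base next to the start of transcription is -1) and a STAT5 match at -150. The Sult3a1 window held a STAT5 match at -109 and an ONECUT match at -74, and the Cux2 window held ATCGAT at -72. A1bg had a STAT5 match at -84 and an ONECUT match as well. The STAT5 motif was present in 3 of the 6 member windows and in 7.04% of the 32536 promoter windows of the same length, and ATCGAT or ATCAAT in 4 of the 6 and in 7.28%. The windows are few and a match is only a run of letters, so these shares describe the sequences and say nothing about binding.

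The 5 male-biased members are enzymes. In wild type liver all of them had lower pool means at 24 than at 5 months, by a median of 0.61 on the log2 scale. In Myc+/- liver 2 of the 5 were lower at 24 months and 3 had slightly higher means, with a median difference of 0.02. The 4 female-biased members had higher 24-month means in wild type liver, by a median of 0.86, and in Myc+/- liver 3 of the 4 were higher, with a median of 0.51. These counts include the dim A1bg, which differed by 0.05 in wild type with overlapping arrays. They also include Sult3a1, which was near the floor of the array in both Myc+/- pools. Of all 13073 probe sets tested in liver, 47.8% were called between the ages at an adjusted p under 0.05, 30.5% higher and 17.3% lower at 24 months, so much of the measured transcriptome differed and a difference in a given member is not unusual by itself.

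Hsd3b5 encodes a steroid dehydrogenase that acts as a reductase and is made in male liver. Its arrays read 12.38, 12.35 and 12.43 in the 5-month wild type pool and 9.74, 9.74 and 10.01 in the 24-month wild type pool. The Myc+/- arrays read 11.96, 11.94 and 12.01 at 5 months and 11.15, 11.05 and 10.98 at 24 months. The 4 pools did not overlap on any array, with the old wild type pool lowest and the old Myc+/- pool between it and both young pools. The 24-month mean was 5.87-fold lower than the 5-month mean in wild type and 1.88-fold lower in Myc+/-.

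Moxd1 encodes a copper-dependent monooxygenase related to dopamine beta-hydroxylase, and had the widest age difference among the male-biased members. Its arrays read 9.80, 9.98 and 9.85 in young wild type liver and 10.52, 10.78 and 10.72 in young Myc+/- liver. At 24 months they read 6.79, 6.61 and 6.86 in wild type and 6.64, 6.44 and 6.77 in Myc+/-. The old pools overlapped and lay below 6.87, the value under which a probe set was left out as dim if its mean over the liver arrays was lower, while the young pools did not overlap. The age difference was 8.72-fold in wild type and 16.7-fold in Myc+/-, the larger one starting from a higher young level.

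Elovl3, a fatty acid elongase, read 12.92, 12.65 and 12.72 in young wild type liver and 12.06, 12.29 and 12.26 in old wild type liver. In Myc+/- liver it read 12.75, 13.18 and 13.20 at 5 months and 13.02, 13.07 and 13.08 at 24 months. The old wild type pool was below all other liver arrays, and both Myc+/- pools had about the same mean. Cyp4a12a, a fatty acid hydroxylase, was lowest in old wild type liver too. It read 12.73, 12.77 and 12.73 there, between 13.34 and 13.36 in young wild type, and between 13.18 and 13.42 in old Myc+/-. The young Myc+/- mean of Cyp4a12a, 13.12, rests on the low array described above.

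Cyp7b1, an oxysterol hydroxylase of the alternative pathway of bile acid synthesis, hardly varied. Its pool means were 12.82 and 12.68 in wild type at 5 and 24 months and 12.55 and 12.63 in Myc+/-. All 12 liver arrays lay between 12.40 and 12.83. The male-biased members thus ranged from an age difference of 8.72-fold in Moxd1 to one of 1.10-fold in Cyp7b1 in the same wild type pools.

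**Figure D1:**
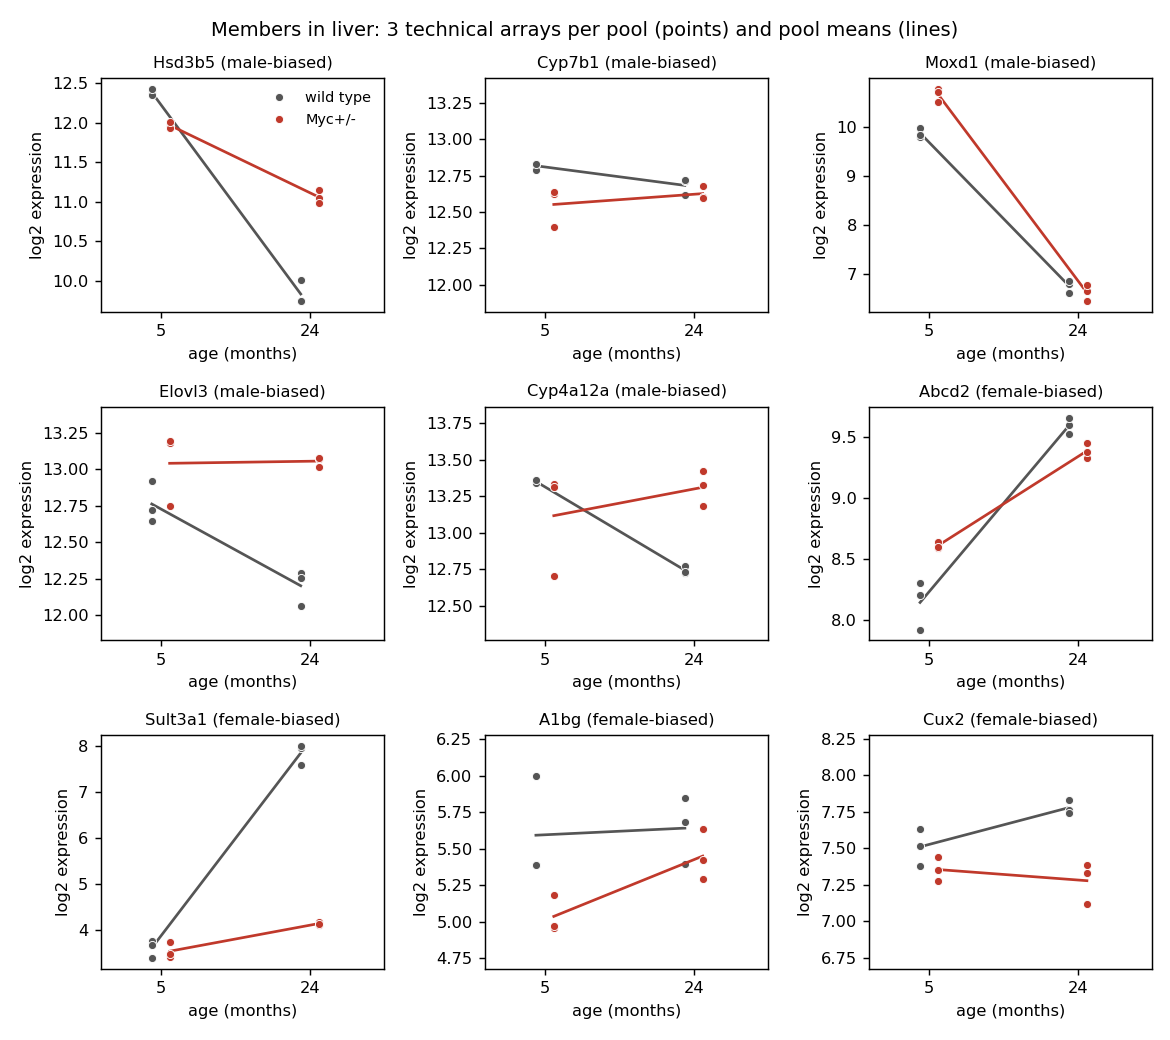
Log2 expression of the 9 members in liver (vertical axis, with a different range in each panel) against age in months; points are the 3 technical arrays of a pool and lines join the pool means, wild type in grey and Myc+/- in red. Hsd3b5, Elovl3 and Sult3a1 show the old wild type pool apart from the other 3, Cyp4a12a shows it apart from all but the low array of the young Myc+/- pool, and Moxd1 is near 6.7 in both old pools.

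Among the female-biased members, Sult3a1, a sulfotransferase of drug metabolism, stood out in a single pool. Its arrays read 7.60, 7.95 and 8.00 in old wild type liver. All other liver arrays lay between 3.39 and 4.18, close to the muscle and adipose pools, whose means were between 3.20 and 3.54. The pool means were 3.61 and 7.85 in wild type and 3.54 and 4.14 in Myc+/- at 5 and 24 months, and all but that of the old wild type pool are near the floor of the array, so no fold is given. Because its mean over the liver arrays was below the filter, Sult3a1 was not tested in the main comparisons.

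Abcd2 carries very-long-chain fatty acyl-CoA into peroxisomes. It read 7.92, 8.20 and 8.30 in young wild type and 9.52, 9.60 and 9.66 in old wild type liver, a 2.73-fold difference. In Myc+/- liver it read 8.59, 8.64 and 8.59 at 5 months and 9.32, 9.38 and 9.45 at 24 months, a 1.71-fold difference. Both old pools were above both young pools on every array, and the Myc+/- pools spanned the narrower range. Cux2, the transcription factor, read 7.52, 7.63 and 7.38 in young and 7.83, 7.76 and 7.74 in old wild type liver, against 7.44, 7.35 and 7.27 in young and 7.11, 7.33 and 7.38 in old Myc+/- liver. Old wild type arrays were the highest and the other 3 pools overlapped. A1bg, a secreted plasma protein of the immunoglobulin superfamily, was dim, with pool means between 5.04 and 5.64. Its young Myc+/- arrays, 4.96 to 5.18, were below all others and the remaining pools overlapped. It too was below the filter and not tested.

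The genotype comparison over both ages treats the pool as the replicate, with 2 wild type and 2 Myc+/- liver pools. None of the 7 members that passed the filter was called by limma (adjusted p between 0.526 and 0.948), and 2 of them, Elovl3 and Cux2, had an unadjusted p under 0.05. The background was the same: 0% of 13073 probe sets were called, 1006 had an unadjusted p under 0.05, and the smallest adjusted p was 0.152. With the 4 liver pools fitted alone, which leaves 1 residual degree of freedom, 0 of the 7 members and 17 of the probe sets were called. Elovl3 was higher in Myc+/- by 0.57 ± 0.13 (SE from all 12 pools, limma adjusted p = 0.526). That SE also draws on muscle and adipose tissue, where Elovl3 was below the filter. The Elovl3 difference was 0.28 at 5 months and 0.85 at 24 months. Cux2 was lower by 0.33 ± 0.12 (limma adjusted p = 0.629), by 0.16 and 0.50. Of the other members, Hsd3b5, Cyp4a12a, Moxd1 and Abcd2 had differences of opposite sign at the 2 ages, so their averages over both ages describe neither.

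Within each age the genotypes were compared on the arrays. This asks whether 2 RNA mixtures differ beyond array error, and its p-values do not speak for mice beyond those pooled. The same liver pools also gave the age differences that chose the members. Counts of members called, and the p-values of single members, are therefore a description at both ages. A difference was called where it reached 1.5-fold with a limma adjusted p below 0.05. At 5 months 1 of the 7 tested members was called, against 0.459% of all probe sets: Moxd1 was 1.74-fold higher in the Myc+/- pool, by 0.80 ± 0.14 (SE, 3 arrays per pool; limma adjusted p = 0.000434). Abcd2 was higher by 0.46 ± 0.07, 1.38-fold, below the minimum fold (limma adjusted p = 2.17e-05). Hsd3b5 was lower by 0.42 ± 0.16 and Cyp7b1 by 0.27 ± 0.10, and neither passed the adjustment (limma adjusted p = 0.133 and 0.157).

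At 24 months 2 of the 7 were called, both higher in Myc+/-, against 1.81% of all probe sets (1.08% higher). Nothing is read from that count or from single p-values of members, because the old pools also entered the age differences that chose the members. Those p-values measure array error and are given as a description. Hsd3b5 was 2.34-fold higher, by 1.23 ± 0.16 (limma adjusted p = 2.14e-07), and Elovl3 1.81-fold higher, by 0.85 ± 0.14 (limma adjusted p = 1.45e-05). Cyp4a12a was higher by 0.57 ± 0.15 (limma adjusted p = 0.00639), 1.48-fold and so just under the minimum fold. Without array 1 of every pool its difference was 0.62 and was called. Cux2 was 1.42-fold lower, by 0.50 ± 0.09 (limma adjusted p = 0.000151), and Abcd2 lower by 0.21 ± 0.07 (limma adjusted p = 0.0362), both under the minimum fold. Sult3a1, below the filter and not tested, was at 7.85 in the wild type and 4.14 in the Myc+/- pool; the latter is near the floor of the array, so no fold is given. Moxd1 and Cyp7b1 were within 0.14 of the wild type pool.

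**Figure D2:**
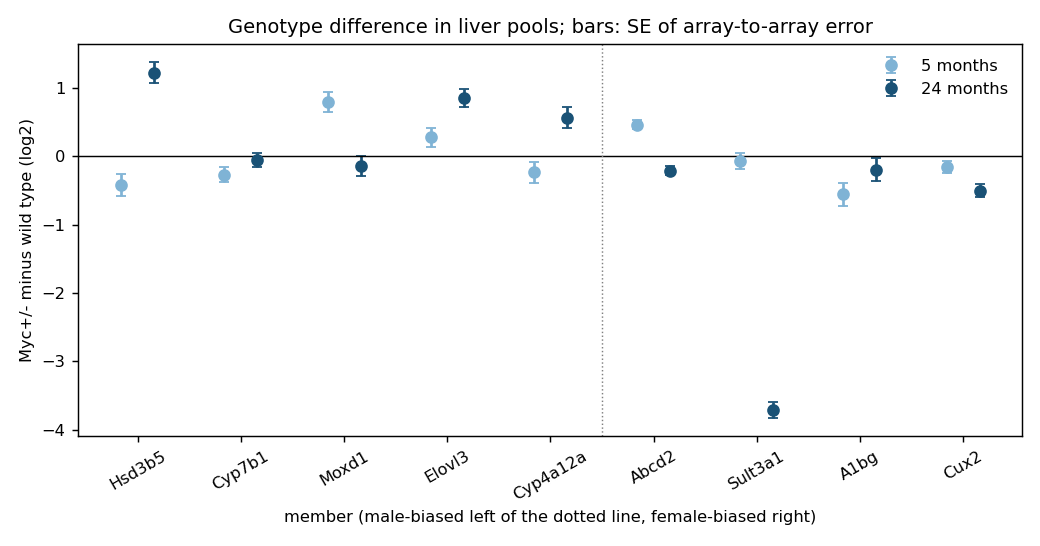
Difference in liver between the Myc+/- and the wild type pool (vertical axis, log2) for each member at 5 months (light) and 24 months (dark); bars are 1 SE of array-to-array error from 3 arrays per pool. At 24 months Hsd3b5, Elovl3 and Cyp4a12a lie above 0 and Sult3a1 and Cux2 below it, while at 5 months Moxd1 is the highest.

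The old wild type pool enters both the age difference in wild type and the genotype difference at 24 months, so these are not separate observations. The difference of the age change between the genotypes, on the 12 liver arrays, is built from the age differences that chose the members, so for them it is a description and nothing is read from how many passed. The 24-month minus 5-month difference was more positive in Myc+/- by 1.65 ± 0.22 for Hsd3b5, 0.80 ± 0.21 for Cyp4a12a and 0.58 ± 0.19 for Elovl3 (SE of array error). It was more negative in Myc+/- for Moxd1, at -0.94 ± 0.20, for Abcd2, at -0.67 ± 0.10, and for Cux2, at -0.35 ± 0.13. Among the male-biased members Moxd1 therefore had the opposite sign to Hsd3b5, Cyp4a12a and Elovl3. The call rule marked 4 of the 7 tested members, 2 in each direction, and 2.43% of all probe sets (1.2% higher and 1.23% lower). Without array 1 of every pool it marked 2 members.

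Other sex-biased liver genes, from lists written with the earlier results known, were read in the same pools, so counts over these lists are a description. Of 36 tested male-biased genes other than the members, 14 fell and 3 rose with age by the pool fit, against 17.3% and 30.5% of all probe sets, and 19 were not called. Their median age difference was -0.46 in wild type and -0.09 in Myc+/-, beside 0.07 and 0.06 over all probe sets tested. Slco1a1, an organic anion transporter of male liver, fell by 1.24 ± 0.39 (limma adjusted p = 0.0373), from 11.83 to 9.65 in wild type and from 11.58 to 11.28 in Myc+/-. Its age difference was -2.19 in wild type and -0.29 in Myc+/-, a gap wider than that SE, which draws on all 12 pools and not on liver alone. Cyp2d9, a male-specific steroid hydroxylase, fell by 1.11 ± 0.17 (limma adjusted p = 0.00269), Obp2a by 1.03 ± 0.21 (limma adjusted p = 0.00755) and Selenbp2 by 1.02 ± 0.19 (limma adjusted p = 0.00567). Without the young wild type liver pool 8 of the list fell, and without the old wild type pool 7; without either Myc+/- pool 14 fell. Slco1a1 was not called without either wild type pool, its difference then being -0.29.

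Of 28 tested female-biased genes other than the members, 14 rose and 4 fell with age, against 30.5% and 17.3% of all probe sets. Slc22a26, an organic anion transporter of the female liver, rose by 4.004 ± 0.42 (limma adjusted p = 0.000619), from 6.22 to 11.28 in wild type and from 6.33 to 9.28 in Myc+/-. Its age difference was 5.06 in wild type and 2.95 in Myc+/-, a gap wider than that SE, which draws on all 12 pools. Atp6v0d2, a subunit of a proton pump, rose by 2.56 ± 0.58 (limma adjusted p = 0.0113), and Nipal1, a magnesium transporter, by 2.30 ± 0.10 (limma adjusted p = 8.88e-05). Hamp2, a hepcidin peptide gene, went the other way and fell by 2.04 ± 0.20 (limma adjusted p = 0.000495). The median age difference of the list was 0.59 in wild type and 0.21 in Myc+/-. Without either wild type liver pool 9 of the list rose, and Atp6v0d2 was no longer called (limma adjusted p = 0.143), while without either Myc+/- pool 13 rose.

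By genotype over both ages, no gene of either list was called by the pool fit; with the liver pools fitted alone Nipal1 was called lower in Myc+/- (-0.75, limma adjusted p = 0.0488). By the arrays at 24 months, 7 of the 36 male-biased genes were higher in Myc+/- and none lower, against 1.08% and 0.734% of all probe sets. Among them were Slco1a1, higher by 1.64, and Nat8, an acetyltransferase, higher by 1.31. Without array 1 of every pool 4 were called higher. Of the 28 female-biased genes 6 were lower and 1 higher in Myc+/- at that age; Fabp5, a fatty acid binding protein, was lower by 1.46 and Slc22a26 by 2.00. At 5 months the female-biased genes had the other direction: 9 were higher and 1 lower in Myc+/-, against 0.375% and 0.0841% of all probe sets, among them Cyp2a22, a cytochrome P450, at 5.51 in wild type and 7.61 in Myc+/-, and Slc16a5, a transporter, at 7.25 and 8.40. Without array 3 of every pool 3 were called higher. None of the male-biased genes was called at 5 months.

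The age difference was more positive in Myc+/- in 33 of the 36 male-biased genes (91.7%) and in 5 of the 28 female-biased genes (17.9%), compared with 49.9% of all probe sets tested. Of the male-biased genes 9 were called for that difference, all more positive in Myc+/-. Of the female-biased genes 11 were called more negative and 1 more positive. Of all probe sets, 1.2% were called more positive and 1.23% more negative. The lists were written with earlier results of these data known, and this difference is built from the age differences. The counts are therefore a description, and nothing is read from their distance to the share of all probe sets. They rest on 4 liver pools, and genes of 1 pool are not independent of each other. Hepatocyte identity genes had 19 of 22 differences of the same sign as the male-biased list, with 1 called. Fatty acid oxidation and PPAR alpha target genes had 20 of 21 of that sign, with 3 called. All 7 exocrine pancreas genes had it and were called. Acute phase genes had 18 of 21 of the opposite sign, like the female-biased list, with 9 called. Neither the signs nor the calls were thus confined to sex-biased genes.

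**Figure D3:**
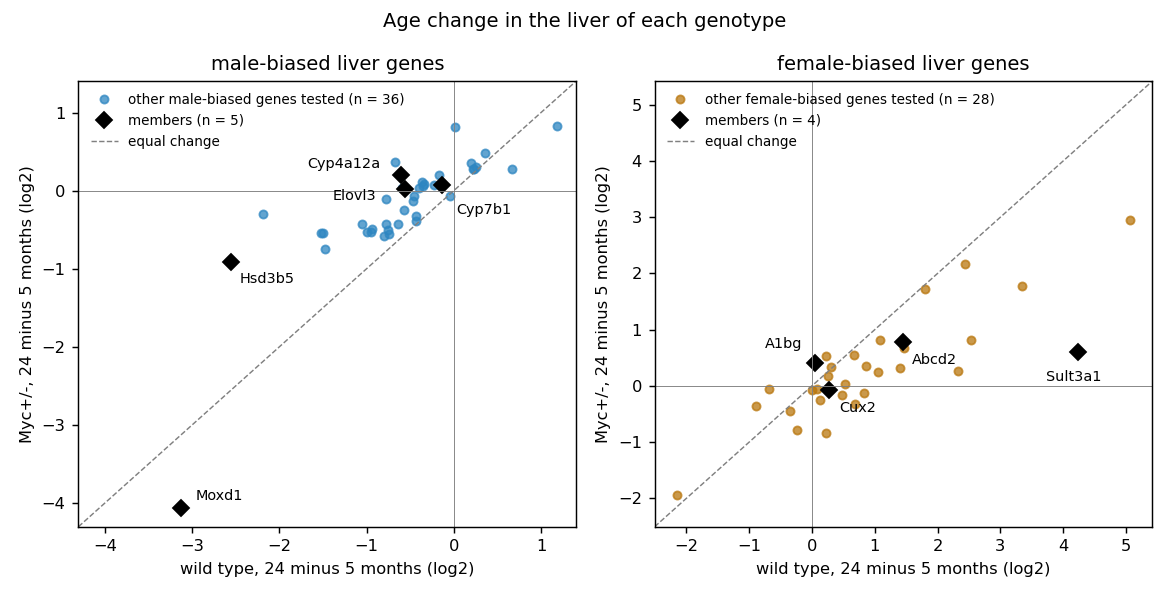
Age difference in liver, 24 minus 5 months (log2), in wild type (horizontal axis) and Myc+/- (vertical axis), for male-biased genes on the left and female-biased genes on the right; coloured points are other genes of each list, black diamonds the members, and the dashed line marks equal differences. Most male-biased points lie above the line and most female-biased points below it, with Moxd1 the lowest point of its panel.

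Some other female-biased genes were, like Sult3a1, highest in old wild type liver; these and the genes of the next paragraphs that no rule selected, Ghr, Jak2, Stat5a, Stat5b, Igf1 and Bcl6, were chosen after their values were seen. Cyp2b9, a female-specific cytochrome P450, was at 10.76 and 13.29 in wild type and at 11.44 and 12.25 in Myc+/-. Cyp2b13, its close relative, was at 5.67 and 8.25 in wild type and at 6.14 and 6.29 in Myc+/-, and Sult1e1, the estrogen sulfotransferase, at 4.51 and 7.40 and at 4.80 and 4.72. Cyp2b13 and Sult1e1 were below the filter and not tested.

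Of 29 tested growth hormone and STAT5 signalling genes 11 rose and 5 fell with age, against 30.5% and 17.3% of all probe sets, which is near the background. The receptor Ghr was at 12.88 and 12.90 in wild type and 12.78 and 12.89 in Myc+/- (limma adjusted p for age = 0.376). Igf1, the main hormone that the liver makes on growth hormone's signal, was at 12.79 and 12.80 in wild type and 12.62 and 12.89 in Myc+/- (limma adjusted p for age = 0.360). Jak2 rose by 0.56 ± 0.06 (limma adjusted p = 0.000636) and Stat5b by 0.44 ± 0.08 (limma adjusted p = 0.00471), though Stat5b was not called without either wild type liver pool (limma adjusted p = 0.0601). Stat5a, at a difference of 0.15 ± 0.06, was not called (limma adjusted p = 0.0790). Transcript levels do not give the activity of these proteins, which is set by phosphorylation.

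Feedback genes and other genes of the signalling list went in both directions. Socs2, a STAT5 target that shuts off growth hormone signalling, rose with age by 1.66 ± 0.11 (limma adjusted p = 0.00016), from 9.51 to 11.35 in wild type and from 9.01 to 10.49 in Myc+/-. It was lower in Myc+/- at both ages, by 0.50 and 0.86, and the pool fit did not call this (-0.68 ± 0.11, limma adjusted p = 0.271), but with the liver pools fitted alone it was called (limma adjusted p = 0.0488). Cish, another STAT5 target with the same role, fell by 0.38 ± 0.10 with age (limma adjusted p = 0.0226). Igfbp1, which binds Igf1, rose by 1.40 ± 0.26 (limma adjusted p = 0.00499), and the phosphatase gene Ptpn1 by 0.86 ± 0.17 (limma adjusted p = 0.0066), a call lost without either wild type liver pool. By genotype 23 of the 29 genes had a lower mean in Myc+/-, with a median of -0.08, and none was called by the pool fit over all tissues. Socs2 and Igfbp1 were called lower in Myc+/- on the 24-month arrays, against 0.734% of all probe sets. On the 5-month arrays Igfbp2 was called lower (-0.61, limma adjusted p = 0.000122), against 0.0841% of all probe sets, and at 24 months it differed by 0.009.

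Among 28 tested regulators of sex-biased expression, 5 rose and 3 fell with age, smaller shares than the 30.5% and 17.3% of all probe sets. Onecut1, also known as HNF6, fell by 0.60 ± 0.10 (limma adjusted p = 0.00377), Cebpa by 0.85 ± 0.20 (limma adjusted p = 0.0134) and Cebpb by 0.69 ± 0.12 (limma adjusted p = 0.00493). Esr1, the estrogen receptor, rose by 0.81 ± 0.13 (limma adjusted p = 0.00316). Cebpa was not called when any one liver pool was left out. Bcl6 had crossed values, since the wild type pools were at 9.97 (5 months) and 9.16 (24 months) and the Myc+/- pools at 8.77 and 9.91. The genotype difference of Bcl6 was -1.20 at 5 months (limma adjusted p = 3.32e-14, arrays) and 0.75 at 24 months (limma adjusted p = 2.47e-09, arrays).

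**Figure D4:**
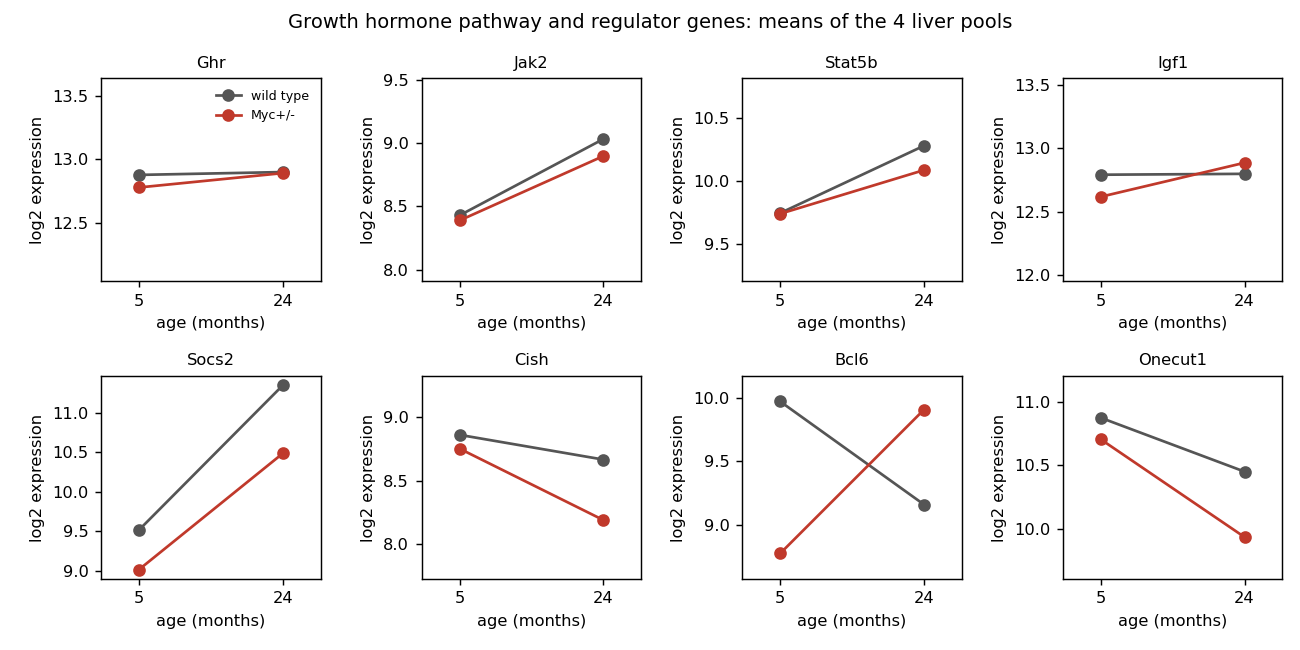
Pool means (log2 expression, vertical axes with their own ranges) of 8 growth hormone pathway and regulator genes in liver at 5 and 24 months, wild type in grey and Myc+/- in red. Ghr and Igf1 are nearly level, Socs2 rises in both genotypes, and the Bcl6 lines cross.

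Markers of other cell types and states moved with age or genotype in the same pools, and their part in the members' differences was not tested. Macrophage and Kupffer cell genes rose with age in 19 of 20 tested cases, their mean level going from 9.15 to 10.06 in wild type and from 9.22 to 10.27 in Myc+/-. All 8 neutrophil genes and 7 of 9 lymphocyte genes rose too, beside 30.5% of all probe sets. So did 6 of 11 stellate cell and 5 of 11 endothelial genes, while 1 of 3 cholangiocyte and 1 of 6 adipocyte genes rose, which is near or under that background. Of 22 hepatocyte identity genes 1 rose and 1 fell, with a mean level between 13.53 and 13.65 in the 4 pools. Exocrine pancreas genes had a mean of 6.69 and 6.63 in the young wild type and Myc+/- pools, 7.25 in old wild type and 8.81 in old Myc+/- liver, and all 7 were called higher in Myc+/- at 24 months. Skeletal muscle genes were called lower in Myc+/- at 24 months in 5 of 7 cases. Acute phase genes had a mean of 11.95 in young wild type, 12.67 in young Myc+/-, 13.30 in old wild type and 12.53 in old Myc+/- liver; 6 of 21 were called higher in Myc+/- at 5 months and 8 lower at 24 months. They were thus highest in the pool where Hsd3b5, Elovl3 and Cyp4a12a were lowest. Of 21 fatty acid oxidation and PPAR alpha target genes, 7 were called higher in Myc+/- at 24 months. Of all probe sets, 0.375% were called higher at 5 months, and 1.08% higher and 0.734% lower at 24 months. These lists too were written with earlier results known, so nothing is read from the counts.

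Clock genes moved as well. Of 17 tested circadian clock genes 12 fell and 2 rose between the ages, against 17.3% and 30.5% of all probe sets. Their mean level was 9.50 and 9.45 in the young wild type and Myc+/- pools and 8.55 and 8.74 in the old ones. Ciart, a clock repressor, fell by 3.18 ± 0.18 (limma adjusted p = 0.000137), and Arntl, an activator of the clock, rose by 1.04 ± 0.10 (limma adjusted p = 0.000451). Age and the hour of death cannot be told apart from these labels.

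The genes whose pattern over the 4 liver pools was nearest to each member, among 11914 compared after centring on the gene's mean, are a description of 4 numbers per gene. The nearest to Hsd3b5 were Bhlhe41, a clock repressor, and Slco1a1, both at a distance of 0.58 in log2 units. The nearest to Moxd1 was Ciart at 0.80, followed by the small nucleolar RNA gene Snora74a at 0.91, and the nearest to Abcd2 was Arntl at 0.17, followed by Nt5e at 0.18. Clock genes were the nearest neighbour of 3 of the 9 members, though Slco1a1 was about as near to Hsd3b5. Since 12 of the 17 tested clock genes fell and 2 rose with age, nothing is read from that count. Elovl3 was nearest to Ehhadh, a peroxisomal enzyme of fatty acid oxidation, at 0.08, and to Chrna2 at 0.11, and Cyp4a12a to Mrps21 at 0.09 and its own relative Cyp4a12b at 0.11. Sult3a1 was nearest to Chil1, a secreted chitinase-like protein of myeloid cells, at 0.50, with values of 6.56 and 10.81 in wild type and 6.85 and 7.69 in Myc+/-, and then to Atp6v0d2 at 1.70. Cyp7b1, which hardly varied, was at 0.02 from both Rhox6 and Six5, Cux2 was at 0.07 from Plxnb1 and 0.08 from Sh2d4a, and the dim A1bg was nearest to Myc at 0.08 and to Aph1b at 0.16.

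Relatives of the members were read for comparison. Hsd3b2 was at 10.39 and 9.61 in wild type and 10.28 and 10.17 in Myc+/-, a smaller version of the arrangement of Hsd3b5, and Hsd3b3 was at 12.34 and 11.83 in wild type and 12.24 and 12.15 in Myc+/-. Hsd3b7, which acts in bile acid synthesis, had the opposite age direction, 11.72 and 12.27 in wild type and 11.76 and 12.36 in Myc+/-. Probe sets shared by Hsd3b5, Hsd3b4 and Gm10681 were at 7.84 and 7.19 in wild type and 7.47 and 7.40 in Myc+/-. Cyp4a12b, at 13.24 and 12.65 in wild type and 13.10 and 13.14 in Myc+/-, is a near-identical copy of Cyp4a12a, so the 2 probe sets may read the same transcripts and their split is uncertain. Cyp4a14, a PPAR alpha target of the same family, had a higher mean at 24 months in both genotypes, going from 11.88 to 12.42 in wild type and from 12.45 to 13.59 in Myc+/-. Sult3a2 was below the filter, with a highest mean of 4.13 in old wild type liver.

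Across tissues, Cyp4a12a, Elovl3, Hsd3b5 and Cyp7b1 were above the filter through their liver level alone, so they had to be higher in liver and their values are a description. The pool means of Cyp4a12a were 12.74 to 13.35 in liver, 4.80 to 6.22 in muscle and 5.06 to 6.99 in adipose tissue, and those of Hsd3b5 9.83 to 12.39, 4.35 to 5.50 and 4.99 to 5.42. Elovl3 was at 12.20 to 13.06 in liver, 5.38 to 7.38 in muscle and 5.08 to 6.70 in adipose tissue, and Cyp7b1 at 12.55 to 12.82, 6.01 to 6.35 and 6.38 to 7.22. With these 4, the call rule marked 5 of the 7 tested members higher in liver than in muscle and adipose tissue and 1 lower, beside 35.4% and 47.4% of all probe sets (82.7% in either direction), and nothing is read from that count. The tissues of a group came from the same animals, so the p-values across tissues take pools of the same mice as independent. Moxd1, which also passed the filter in muscle, differed by 1.87 ± 0.12 (limma adjusted p = 6.27e-06), although old liver, at 6.75 and 6.62, was below muscle, at 7.07 to 7.28. Abcd2 was lower in liver by 2.46 ± 0.12 (limma adjusted p = 1.02e-06), with means of 8.14 to 9.59 in liver, 10.30 to 11.24 in muscle and 11.88 to 12.55 in adipose tissue. Cux2 did not differ by a called amount (-0.02 ± 0.07, limma adjusted p = 0.820; 0.04 after centring each array on its median). Sult3a1 and A1bg were below the filter in every tissue and were not tested there. Abcd2 and Cux2 were thus not higher in liver on these arrays, and Abcd2, Cux2 and A1bg are not enzymes.

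**Figure D5:**
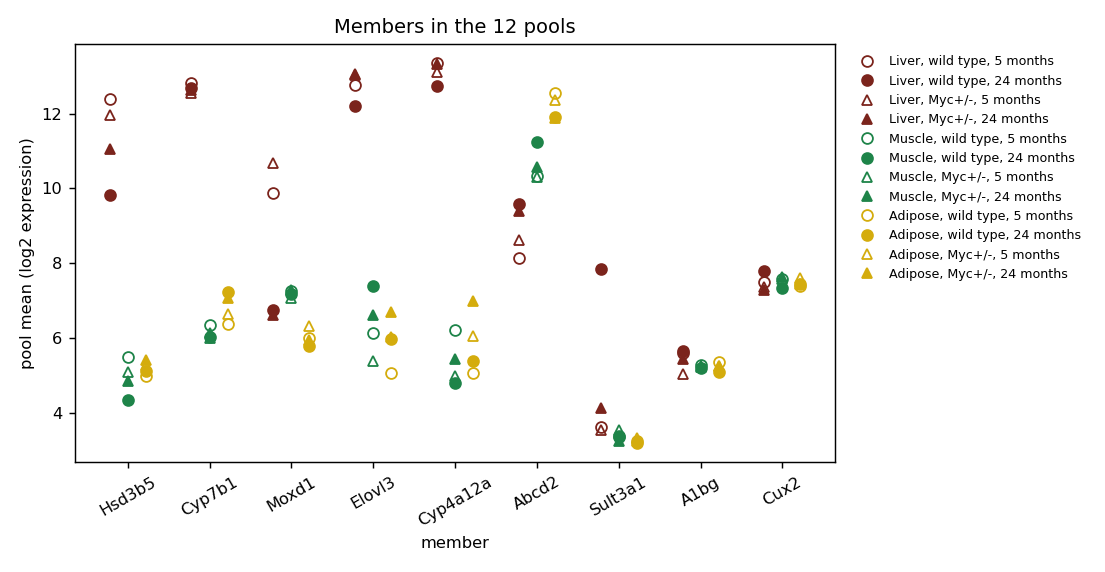
Pool means (log2 expression, vertical axis) of each member (horizontal axis) in the 12 pools; colour gives the tissue, circles wild type, triangles Myc+/-, open symbols 5 months and filled symbols 24 months. Hsd3b5, Cyp7b1, Elovl3 and Cyp4a12a are far higher in liver, Abcd2 is highest in adipose tissue, and Sult3a1 is raised in old wild type liver only.

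Outside the liver 3 members passed the filter in muscle and 2 in adipose tissue. Abcd2 rose with age in muscle by 0.59 ± 0.19 (limma adjusted p = 0.0377), 1 of 3 tested against 42.5% of all probe sets, from 10.32 to 11.24 in wild type and from 10.30 to 10.56 in Myc+/-. The call was lost when the filter was dropped (limma adjusted p = 0.0568). In adipose tissue Abcd2 had an age difference of -0.55 ± 0.19 (limma adjusted p = 0.0738), opposite in sign to that in liver. There 0 of 2 members were called by limma against 26.6% of all probe sets, with 1 at an unadjusted p under 0.05. By genotype limma called 0 of 3 members in muscle (adjusted p between 0.975 and 0.992), against 0%, and 0 of 2 in adipose tissue (adjusted p 0.823 and 0.891), against 0.00765%, with none at an unadjusted p under 0.05 in either tissue. Hsd3b5, at 4.35 to 5.50, was below the filter in both tissues.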

How the data were processed

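The authors deposited 1 table of log2 expression values for 36 arrays, which per the submitters' processing notes came from RMA in Affymetrix Expression Console; further settings are not given in the sources used here. RMA quantile normalization gives all arrays nearly the same distribution, so a shift of all genes would not show, and the number of arrays limits the precision. Per the labels' protocols, 2 homogenization methods were used without saying for which samples, and the kits named for target preparation differ.

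Probe sets were named through the platform annotation: of 35556, 21789 had 1 symbol, 1621 several, which were not used for members, and 12146 were not listed; Entrez IDs of 21698 matched RefSeq (GRCm38.p6). A gene was its probe set with the highest mean. Probe sets whose mean in a tissue was above its 40th percentile (6.87 in liver) were tested, 13073 per tissue.

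Arrays of a pool were averaged, and limma 3.58.1 (R 4.3.3; lmFit, eBayes with trend) was fitted to the 12 pools with tissue, age within tissue and genotype within tissue, leaving 3 residual degrees of freedom, with Benjamini-Hochberg adjustment over all probe sets tested and a threshold of 0.05. A second fit used the 36 arrays, with a minimum of 1.5-fold; its error is technical. Errors after ± are SE. Both were tested on simulated data. The labels give 1 pool per group, so p-values of the first fit measure the spread between pools around additive effects of age and genotype. That spread was estimated for each probe set over all 12 pools, so errors of a liver difference also draw on muscle and adipose tissue. Pools of different tissues were taken as independent, although they came from the same animals.

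The members and the 17 gene lists were chosen with earlier results of these data known. Named genes are the members, up to 4 genes per list with the widest called age difference or the widest genotype difference of 1 sign at both ages, and the 2 nearest genes per member; Ghr, Jak2, Stat5a, Stat5b, Igf1, Bcl6, Cyp2b9, Cyp2b13, Sult1e1, Cyp17a1, Hsd3b2 and Cyp4a12b were added after their values were seen, some of them as relatives of members. Alternatives changed the filter, trend, centring, fold minimum and the arrays or pools used. Promoters came from RefSeq. Cyp7b1, Elovl3, Cyp4a12a and Abcd2 had no window there.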

Additional observations from a re-analysis of the deposited data

Results flagged for a closer look

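The 24-month minus 5-month difference in liver was compared between the genotypes on the arrays for 65 named genes. Of these 61 were tested and 26 were called by limma, beside 2.43% of all probe sets. Many of the genes were named for their values in these same pools, so nothing is read from that count. All values below are that difference in Myc+/- minus the one in wild type (log2). They share the same 4 pools, and the p-values behind the calls measure array error.

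Among the members, for which it is a description since their age differences chose them, it was 1.65 for Hsd3b5, 0.80 for Cyp4a12a, -0.94 for Moxd1 and -0.67 for Abcd2. For male-biased genes it was 1.89 for Slco1a1, 1.04 for Nat8, 0.98 for Obp2a, 0.96 for Selenbp2, 0.72 for Cyp2d9, 0.68 for Hsd3b2 and 0.63 for Cyp4a12b. For female-biased genes it was -2.11 for Slc22a26, -2.06 for Cyp2a22, -1.73 for Cyp2b9, -1.58 for Atp6v0d2, -1.05 for Fabp5, -0.95 for Cyp17a1 and -0.80 for Slc16a5.

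Among growth hormone signalling and regulator genes it was -1.24 for Igfbp1, -0.61 for Ptpn1 and 1.95 for Bcl6. Neighbours of members share the pattern because they were picked for it: -3.42 for Chil1, 0.71 for Bhlhe41, 0.72 for Ehhadh, 0.64 for Chrna2 and 0.65 for Mrps21.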

How the results depend on the processing

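The limits are set by 1 pool per group and 3 technical arrays per pool. Dim members (Sult3a1, A1bg) could not be tested under the filter. Each member had 1 probe set with 1 symbol, so the alternative of another probe set was not run. Alternatives for the sex-biased lists on the arrays, and the values of neighbours and relatives, were added after seeing the data.

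Of the members' alternatives, 75 of 83 kept direction and call for liver genotype, 17 of 19 for muscle age, 12 of 13 for adipose age, 47 of 48 for liver against the other tissues, and all 19 and 13 for muscle and adipose genotype. Without a filter 2 members were called for age in adipose tissue, and 10 female-biased genes were lower in Myc+/- at 24 months. Without a minimum fold 2 members were called at 5 months and 5 at 24 months, and 14 male-biased genes at 24 months. Of all 13073 probe sets, 2349 at 5 months and 3490 at 24 months had an unadjusted limma p under 0.05 on the arrays. The shares of all probe sets called under such altered settings are not given here, so nothing is read from these counts. Leaving out 1 technical array number gave 14 to 15 male-biased genes that fell with age, 2 to 4 members called for the difference of the age change, 4 to 7 male-biased genes higher at 24 months, and 3 to 8 female-biased genes higher at 5 months. Leaving out 1 liver pool gave 7 to 14 male-biased genes that fell and 9 to 13 female-biased genes that rose with age.

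Technical array numbers did not pair the pools: deviations of same-numbered liver arrays correlated at -0.20 to 0.26. With a replicate block on the array number, 1 member was called at 5 months, 2 at 24 months and 4 for the difference of the age change, and 9, 7 and 6 genes of the sex-biased lists. The shares of all probe sets are not given for that fit, so nothing is read from these counts.

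With the liver pools fitted alone, the genotype difference was called for 6 genes of the lists: Socs2, Nipal1, Myl1 (-1.19), Vnn1 (0.66), Cidec (1.61, limma adjusted p = 0.000794) and Pdk4. Signs turned in these cases. With centred arrays, Cux2 was at 0.039 for liver against muscle and adipose and Igf1 was at 0.00014 for liver genotype. Leaving out 1 technical array number gave -0.11 to 0.015 for Cux2 (adipose age), -0.090 to 0.015 for Ghr (liver genotype), -0.092 to 0.014 for Igf1 (liver genotype), -0.083 to 0.040 for Rhox6 (liver age), -0.033 to 0.14 for Moxd1 (muscle age), -0.089 to 0.045 for Six5 (liver age), -0.086 to 0.018 for Cyp7b1 (liver age).

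With 1 of the 4 liver pools left out, the genotype difference, which is then that of the age with both pools, ranged over -0.14 to 0.80 for Moxd1, -0.21 to 0.46 for Abcd2, -0.017 to 0.090 for Stat5a, -0.17 to 0.087 for Igf1, -1.20 to 0.75 for Bcl6, -0.049 to 0.31 for Arntl, -0.067 to 0.38 for Nt5e, -0.42 to 1.23 for Hsd3b5, -0.23 to 0.57 for Cyp4a12a, -1.05 to 0.68 for Cyp2b9, -0.63 to 0.33 for Cyp17a1, -0.11 to 0.57 for Hsd3b2, -0.14 to 0.49 for Cyp4a12b, -0.29 to 0.42 for Bhlhe41, -0.25 to 1.64 for Slco1a1, -0.20 to 0.45 for Mrps21, -3.12 to 0.29 for Chil1, -1.34 to 0.24 for Atp6v0d2 and -0.10 to -0.0084 for Ghr. The liver age difference, then that of the genotype with both pools, ranged over -0.12 to 0.83 for Cyp17a1, -0.59 to 0.040 for Cyp4a12b, -0.12 to 0.066 for Rhox6, -0.15 to 0.10 for Six5, -0.65 to 0.075 for Ehhadh, -0.56 to 0.091 for Mrps21, -0.0096 to 0.23 for Sh2d4a, -0.81 to 1.14 for Bcl6 and -0.016 to 0.35 for Myc.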

Other observations

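Some male-biased members were dim outside the liver but not level there; these values were picked out after they were seen, lie mostly below the filter, and were not tested in the main comparisons. Elovl3 was at 6.13 in young and 7.38 in old wild type muscle and at 5.38 and 6.62 in Myc+/- muscle. In adipose tissue it was at 5.08 and 5.98 in wild type and at 6.03 and 6.70 in Myc+/-. Cyp4a12a in adipose tissue was at 5.06 and 5.39 in wild type and at 6.06 and 6.99 in Myc+/-. Cyp7b1 in adipose tissue was at 6.38 and 7.22 in wild type and at 6.64 and 7.07 in Myc+/-. With the filter dropped, the age differences of Elovl3 and Cyp7b1 were the 2 called by limma in adipose tissue. In muscle that of Elovl3, at 1.25, was then called too (limma adjusted p = 0.000983). The shares of all probe sets called without the filter are not given here.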
